A study of Mus musculus with 27 samples.

Results

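Adipokines are proteins that fat cells secrete and that act on appetite, insulin sensitivity and blood vessels. A set of 10 such factors and receptors was followed here on microarrays of cultured mouse fat cells exposed to rosiglitazone: 7 genes of secreted factors (Adipoq, Lep, Retn, Rbp4, Nampt, Agt and Apln) and 3 receptor genes (Adipor1, Adipor2 and Lepr). They are 10 of the 18781 genes measured. Each was read from the probe set annotated to its symbol alone, and each had exactly 1 such probe set, so no choice between probe sets arose.

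The cells were mature 3T3-L1 adipocytes, differentiated from a mouse preadipocyte line with dexamethasone, insulin and 3-isobutyl-1-methylxanthine, a treatment that all groups shared. The comparison had 9 groups of 3 arrays: cells with no treatment at time 0, and cells given 1 µM rosiglitazone, dissolved in DMSO, for 30 min, 1 h, 2 h, 6 h, 12 h, 24 h, 36 h or 48 h. The series text speaks of cells given DMSO, but 0 of the 27 arrays carry that label, so rosiglitazone, its solvent and the time spent in culture cannot be told apart. It is a single cell line without blood vessels, nerves or immune cells, and the labels do not say whether the 3 arrays of a group came from separate cultures, so the p-values here reflect variation from array to array that could be technical.

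Rosiglitazone activates PPARγ, the nuclear receptor that directs fat cell differentiation and pairs with RXR on DNA. Adiponectin (Adipoq) signals through the receptors encoded by Adipor1 and Adipor2 and raises insulin sensitivity, whereas leptin (Lep) reports fat stores to the brain through the receptor encoded by Lepr. Resistin (Retn) was described as a fat cell hormone that opposes insulin in mice, Rbp4 carries retinol in blood, Nampt makes a precursor of NAD and is also found outside cells, angiotensinogen (Agt) is the precursor of angiotensin, and apelin (Apln) is a peptide that acts on vessels and heart.

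Of the 10 genes, 6 changed over the course by the moderated F-test of limma, namely Adipoq, Adipor2, Lep, Retn, Agt and Apln; 40.5% of all genes did. Lep fell early and far, Agt fell late, Adipor2 was higher from 6 h onward, and Apln first fell and then rose. Retn and Adipor1 moved little, and Adipoq passed at none of the single times. Lepr, Rbp4 and Nampt passed neither the F-test nor the test at any of the 8 times. With Adipoq, 4 of the 10 genes were called at none of the times, as were 60.1% of all genes.

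The starts of 4 of these genes are shown because their mRNAs followed different courses: Lep fell from 2 h, Agt from 12 h, Retn by a small amount at 24 h and 48 h, and Apln went down and then up. Each sequence is the 250 bases before the start of transcription in RefSeq on GRCm38.p6, written 5′ to 3′ along the gene's own strand. The Lep window is chr6:29059971-29060220 on the plus strand, that of Agt is chr8:124569707-124569956 on the minus strand, that of Retn is chr8:3655520-3655769 on the plus strand, and that of Apln is chrX:48034854-48035103 on the minus strand. Capitals mark matches to the motifs searched.
Lep: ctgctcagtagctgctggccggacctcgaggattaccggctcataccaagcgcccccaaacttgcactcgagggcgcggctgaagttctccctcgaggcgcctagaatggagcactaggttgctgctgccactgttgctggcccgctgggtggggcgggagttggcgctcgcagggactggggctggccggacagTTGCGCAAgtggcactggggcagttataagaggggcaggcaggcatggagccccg
Agt: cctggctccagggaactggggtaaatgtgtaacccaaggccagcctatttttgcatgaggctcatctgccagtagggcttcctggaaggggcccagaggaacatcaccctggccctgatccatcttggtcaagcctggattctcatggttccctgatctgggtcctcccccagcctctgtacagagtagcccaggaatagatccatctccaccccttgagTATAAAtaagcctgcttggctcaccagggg
Retn: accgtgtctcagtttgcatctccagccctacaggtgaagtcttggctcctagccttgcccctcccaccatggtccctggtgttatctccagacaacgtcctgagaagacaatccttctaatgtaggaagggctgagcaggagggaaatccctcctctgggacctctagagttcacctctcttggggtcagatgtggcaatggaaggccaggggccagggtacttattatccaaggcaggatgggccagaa
Apln: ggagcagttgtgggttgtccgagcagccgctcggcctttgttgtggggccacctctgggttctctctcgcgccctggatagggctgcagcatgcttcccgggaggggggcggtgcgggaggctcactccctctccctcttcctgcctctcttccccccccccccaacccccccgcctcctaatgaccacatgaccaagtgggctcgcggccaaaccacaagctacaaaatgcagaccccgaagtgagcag
The capitals in Lep are a match to the C/EBP core TTGCNNAA, the site of the factors that act with PPARγ in fat cell differentiation; it reads the same on both strands and its first base lies at -55 from the start. The capitals in Agt are a TATA box, TATAAA, with its first base at -30. No letters of the Retn and Apln windows matched any of the 5 motifs, which were the nuclear receptor half-site AGGTCA, the DR1 element (that half-site repeated with 1 base between, which PPARγ binds with RXR), the C/EBP core, the E-box CACGTG and the TATA box, each searched on both strands. All 10 genes matched the RefSeq table, with 13 windows among them. Of these, 0 held a DR1 element, and the further matches were a half-site at -151 in Nampt and, in the window of Rbp4 that lies downstream of its other one, a C/EBP core at -128 and a TATA box at -28. Over all 32851 windows of the same length, 0.0335% held the DR1 element, 14% the half-site, 9.56% the C/EBP core, 6.02% the E-box and 12.4% the TATA box. A match is a run of letters and not a measured binding site, and these windows cover only the bases next to the start.

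Values are log2 intensities per probe set, which ran from 1.67 to 13.19 over all arrays; array medians lay between 4.02 and 4.13. A difference of 1 is a doubling of intensity, and because probe sets bind with different strength, levels of different genes are not set against each other. A change is the mean of 3 arrays at a time minus the mean of the 3 untreated arrays, given with its standard error (SE), and a gene is said to have risen or fallen where limma's p, adjusted by Benjamini-Hochberg over the 18781 genes, was below 0.05. All 8 times are set against the same 3 untreated arrays. All 8 adipocyte markers fixed for the check were measured, and their mean per array lay between 11.549 and 11.758. They were Adipoq, Fabp4, Plin1, Cidec, Lpl, Cd36, Pparg and Lipe. Adipoq is also one of the genes followed here, and Pparg encodes the receptor that rosiglitazone activates. This check of cell state is therefore not independent of the results or of the treatment. Adipoq was called at none of the times, so it is not among the marker calls that follow. Of the 8, 4 were higher and 1 lower at both 6 h and 24 h, and 1 was higher and 1 lower at 48 h. The list for preadipocytes and fibroblasts held 7 names, with Dlk1 also under its other name Pref1, and 5 were measured. For these 5 the group mean was 7.865 untreated and 7.506 at 48 h, with 3 of 5 lower at 48 h and none higher. For the 6 macrophage markers it was 3.713 and 3.603, with 1 lower, and for 4 endothelial and 3 muscle markers it lay between 3.022 and 3.469 in every group. In bulk RNA, fewer cells of a type and less RNA per cell cannot be told apart. The part of the lower preadipocyte and fibroblast markers, of the 1 lower macrophage marker and of the higher adipocyte markers in the results below was not tested.

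**Figure D1:**
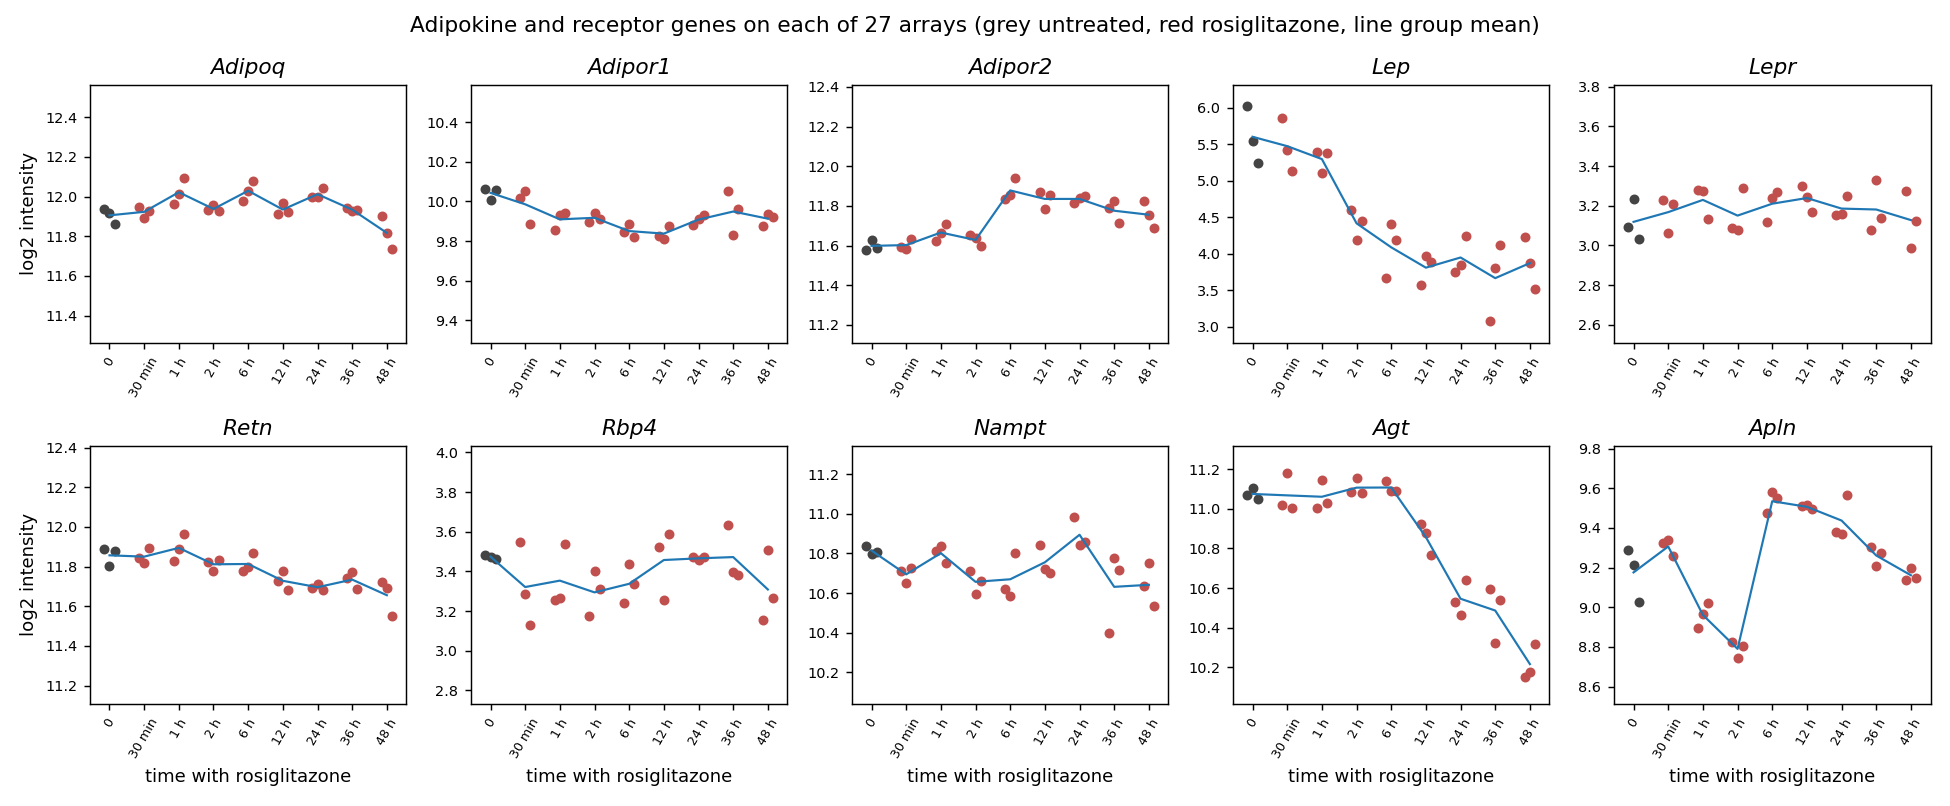
Log2 intensity of each of the 10 genes on every array (points, 3 per group) with the group mean (line), from untreated to 48 h of 1 µM rosiglitazone; each panel has its own vertical axis. Lep arrays lay between 5.25 and 6.02 untreated and between 3.08 and 4.61 from 2 h on, and all Agt arrays from 12 h on lay below the lowest untreated array.

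At 30 min and 1 h limma called 0 of the 10 genes, where it called 0.0479% and 0.99% of all genes. At an unadjusted p below 0.05 the counts were 0 and 3. Those shares do not apply at this looser threshold, for which all genes were not counted. At 2 h it called 2 (Lep and Apln, both lower), against 5.91% of all genes (3.04% higher and 2.87% lower). At 6 h it called 4 (Adipor2 and Apln higher, Adipor1 and Lep lower) against 16.6% (8.39% higher and 8.18% lower), and at 12 h 5 (the same 4 and Agt, which was lower) against 18.9% (9.48% and 9.38%). At 24 h 5 were called (Adipor2 and Apln higher, Lep, Retn and Agt lower) against 20.7% (10.1% and 10.5%), at 36 h 3 (Adipor2 higher, Lep and Agt lower) against 21.4% (10.9% and 10.5%), and at 48 h 4 (Adipor2 higher, Lep, Retn and Agt lower) against 24% (12.6% and 11.4%). The 24 h count was 3 without untreated replicate 3, and the 1 h count 1 without the same array. With so few genes these shares are descriptions of the 10. Centring each array on its own median moved the splits of higher against lower calls from 2 and 2 to 3 and 1 at 6 h, from 2 and 3 to 2 and 1 at 12 h, from 2 and 3 to 3 and 2 at 24 h, and from 1 and 3 to 1 and 2 at 48 h. Calls among all genes moved the same way. Without centring, 50.6% of all genes called at 6 h were higher, and with centring 76.5% were. The centred shares for 12 h, 24 h and 48 h were 68.2%, 70.4% and 65.9%, against 50.3%, 49.0% and 52.5% uncentred. The moved splits are therefore not particular to these 10 genes. Without centring, the median change of the 10 genes at 48 h was -0.15, beside 0.01 for all genes.

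The 9 groups can be compared in 36 pairs. These pairs reuse the same 27 arrays, so they are not independent of each other. Pairs called per gene were counted only for the genes followed here, so the counts have no background from all genes. A single pair can call many genes: 48 h against 2 h called 23.7% of all genes. By limma, with adjustment over genes within a pair, 23 pairs differed for Apln, 22 for Agt, 18 for Lep, 16 for Adipor2, 9 for Retn, 2 each for Adipoq and Adipor1, 1 for Nampt and 0 for Lepr and Rbp4. With the groups sorted by their means, of the 8 neighbouring pairs in each gene's order, 1 differed for Agt (12 h and 24 h), 1 for Apln (48 h and 1 h) and 0 for each of the other genes.

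**Figure D2:**
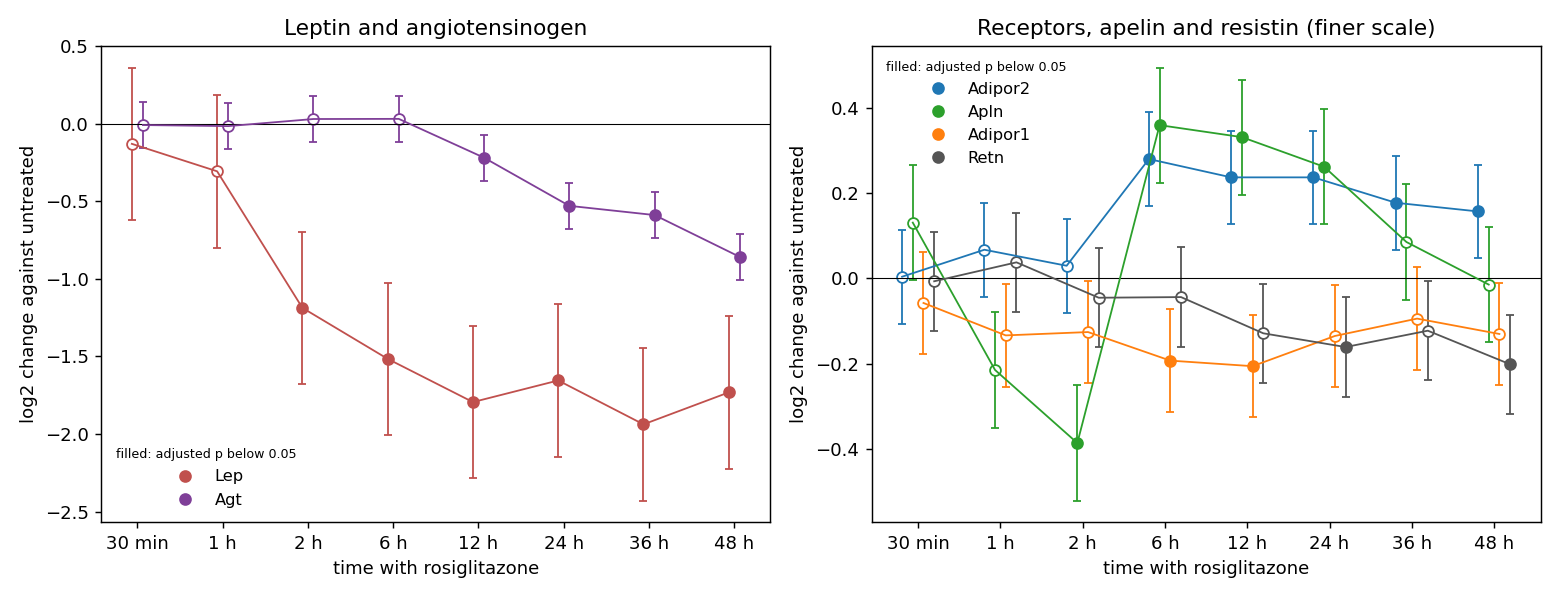
Log2 change against untreated with its 95% confidence interval by time of exposure, for Lep and Agt on the left and for Adipor2, Apln, Adipor1 and Retn on the right, where the axis is finer; filled points have a limma adjusted p below 0.05. Lep reached -1.94 at 36 h and Agt -0.86 at 48 h, while the genes on the right stayed between -0.39 and 0.36.

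Leptin mRNA fell within 2 h and stayed low. The untreated arrays read 5.25, 5.55 and 6.02. At 30 min they read 5.14, 5.43 and 5.86, and at 1 h 5.11, 5.39 and 5.40, so both early times lay within or just below the untreated range. At 2 h the arrays read 4.20, 4.46 and 4.61, all below the lowest untreated array. At 6 h the values were 3.68, 4.19 and 4.41, at 12 h 3.57, 3.89 and 3.97, and at 24 h 3.76, 3.85 and 4.24. At 36 h they were 3.08, 3.81 and 4.12, and at 48 h 3.52, 3.87 and 4.23. From 2 h on, none of the 18 treated arrays reached the lowest untreated or 1 h array. The change was -1.19 ± 0.24 at 2 h, a 2.28-fold fall (SE, n = 3, limma adjusted p = 0.00203), and -1.79 at 12 h, a 3.47-fold fall (adjusted p = 4.99e-06). The lowest mean came at 36 h, with a change of -1.94 (3.83-fold lower, adjusted p = 9.38e-07), and the change at 48 h was -1.73 (3.32-fold lower, adjusted p = 4.37e-06).

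In order of their means, the untreated, 30 min and 1 h groups of Lep came first, then 2 h, 6 h, 24 h, 48 h, 12 h and 36 h. The step from 1 h to 2 h was -0.88 ± 0.24, with a limma adjusted p of 0.0555. It was called with centring (-0.88, adjusted p = 0.0474), with array weights (-0.89, adjusted p = 0.013) and without replicate 1 of every group (-0.92, adjusted p = 0.019). The spread between arrays was wide: the residual SD of Lep, 0.336, was above that of 99.9% of genes, and its values after 2 h lie near the low end of the scale, where an array's log2 difference can understate a fall. Leaving out replicate 2 of every group ended the call at 2 h (-1.10, adjusted p = 0.124), while the calls from 6 h to 48 h remained in every alternative that measured Lep.

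Angiotensinogen mRNA fell later, with each group mean from 12 h to 48 h below the one before. The untreated arrays read 11.05, 11.07 and 11.10, and the arrays up to 6 h lay between 11.00 and 11.18. At 12 h they read 10.77, 10.88 and 10.92, at 24 h 10.47, 10.53 and 10.64, at 36 h 10.32, 10.54 and 10.60, and at 48 h 10.15, 10.18 and 10.32. All arrays from 12 h on lay below all untreated arrays, and the 48 h arrays lay below all 36 h arrays. The change was -0.22 ± 0.07 at 12 h (SE, n = 3, limma adjusted p = 0.0349). It was -0.53 at 24 h (adjusted p = 4.69e-06), then -0.59 at 36 h (adjusted p = 9.13e-07), and finally -0.86 at 48 h, a 1.81-fold fall (adjusted p = 1.95e-09).

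Steps within the course were tested too. Agt at 24 h was 0.31 below 12 h (difference -0.31, limma adjusted p = 0.0163, where 2.93% of all genes were called), and at 48 h the difference from 24 h was -0.33 (adjusted p = 0.0174, against 1.46% of all genes). Between 48 h and 2 h it was -0.89 (adjusted p = 9.11e-10, against 23.7%). The steps from 6 h to 12 h (-0.25, adjusted p = 0.0925) and from 24 h to 36 h (-0.06, adjusted p = 0.811) were not called. Nor was the step from 36 h to 48 h (-0.27, adjusted p = 0.221). The call at 12 h is the weakest: leaving out single arrays ended it in 5 of 6 cases (untreated replicates 1, 2 and 3, and 12 h replicates 2 and 3), with adjusted p up to 0.153, and so did centring (-0.16, adjusted p = 0.181). The calls at 24 h, 36 h and 48 h remained in every alternative, as did the difference between 48 h and 2 h. The differences of 24 h from 12 h and of 48 h from 24 h lost their calls when replicate 1, 2 or 3 of every group was left out.

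Apelin mRNA went both ways. The untreated arrays read 9.03, 9.21 and 9.29, and the 30 min arrays 9.26, 9.32 and 9.34. At 1 h they read 8.90, 8.97 and 9.02 and at 2 h 8.75, 8.80 and 8.82, both below every untreated array. At 6 h they were 9.47, 9.55 and 9.58, at 12 h 9.49, 9.51 and 9.52, and at 24 h 9.37, 9.38 and 9.56, all above every untreated array. At 36 h the values were 9.21, 9.27 and 9.31, and at 48 h 9.14, 9.15 and 9.20, again within the untreated range or just above it. Apln fell by 0.39 on the log2 scale at 2 h (SE 0.07, n = 3, limma adjusted p = 0.00031). It was then above untreated, with a change of 0.36 at 6 h (adjusted p = 0.000295), 0.33 at 12 h (adjusted p = 0.000581) and, last, 0.26 at 24 h (adjusted p = 0.00443). The change at 48 h was -0.01, with a 95% confidence interval from -0.15 to 0.12.

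The turn of Apln between 2 h and 6 h was a rise of 0.74, the largest step between neighbouring times among the changes called for the 10 genes (limma adjusted p = 1.65e-07, where 9.16% of all genes were called). From 30 min to 1 h the difference was -0.35 (adjusted p = 0.0114, where 0.623% of all genes were called), although it lost its call when any replicate number was left out of every group. Only 1.34% of all genes were called lower at some times and higher at others, and Apln was the 1 gene of the 10 that was. Some calls turned on single arrays or numbers: without untreated replicate 3, the lowest untreated array, the call at 24 h ended (0.19, adjusted p = 0.0544) and a fall at 1 h was called (-0.29, adjusted p = 0.0413), and without replicate 2 of every group the call at 2 h ended (-0.34, adjusted p = 0.0716). The 24 h call also ended without replicate 3 of every group (0.12, limma adjusted p = 0.343). So it did with the 30 min arrays as baseline (0.13, adjusted p = 0.166) and with only the 6 arrays compared (0.26, adjusted p = 0.0545).

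Resistin mRNA was slightly lower late in the course. Untreated arrays read 11.80, 11.88 and 11.89, the 24 h arrays 11.68, 11.69 and 11.71, and the 48 h arrays 11.55, 11.69 and 11.72. Both late groups lay below every untreated array, as did the 12 h and 36 h arrays, which reached 11.78 and 11.77. The change of Retn was -0.16 ± 0.06 at 24 h (SE, n = 3, limma adjusted p = 0.0438) and -0.20 at 48 h, a 1.15-fold fall (adjusted p = 0.00979). Neither call is firm: centring the arrays ended both (-0.08, adjusted p = 0.418, and -0.16, adjusted p = 0.0874). The F-test call of Retn ended with centring (adjusted p = 0.151) and without replicate 1, 2 or 3 of every group (adjusted p from 0.0818 to 0.453). The 24 h call ended without any 1 of 5 arrays (24 h replicates 1, 2 and 3, untreated replicates 1 and 3), with adjusted p up to 0.128, and the 48 h call ended without 48 h replicate 3 (-0.15, adjusted p = 0.0802).

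The adiponectin signal stayed within narrow bounds, high on the scale. Its mean over all arrays was above that of 99.9% of genes, and the means of Retn and Adipor2 were above 99.8%. Whether the arrays understate changes at such levels was not tested. Untreated arrays of Adipoq read 11.86, 11.92 and 11.94, the 6 h arrays 11.98, 12.03 and 12.08, and the 48 h arrays 11.73, 11.82 and 11.90. Over the 8 times the changes ran from -0.09 at 48 h to 0.12 at 6 h, and none was called. At 48 h the 95% confidence interval of the change ran from -0.20 to 0.02 and at 6 h from 0.01 to 0.23. The F-test gave an adjusted p of 0.0354, and 48 h lay below 6 h by 0.21 (difference -0.21, limma adjusted p = 0.00542, where 19.8% of all genes were called). That difference was no longer called without replicate 2 (adjusted p = 0.109) or 3 (-0.15, adjusted p = 0.222) of every group. The F-test call ended when any 1 of 9 single arrays (replicates 2 and 3 of 1 h, 6 h and 48 h, and all of 24 h) was left out (adjusted p up to 0.126). It also ended with quantile normalization (adjusted p = 0.156) and without replicate 1, 2 or 3 of every group (adjusted p from 0.061 to 0.698). Centring called a rise at 6 h (0.21, limma adjusted p = 0.0192) as well as at 24 h (0.19, adjusted p = 0.034).

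For Nampt, no change passed the test: they ran from -0.18 at 36 h to 0.08 at 24 h. Its untreated arrays read 10.80, 10.81 and 10.84, its 24 h arrays 10.84, 10.86 and 10.98, and its 36 h arrays 10.40, 10.72 and 10.78. The confidence interval at 36 h ran from -0.35 to -0.02 (limma adjusted p = 0.117), and a fall was called without 36 h replicate 2 (-0.26, adjusted p = 0.0344). The F-test of Nampt (adjusted p = 0.0744) was called among genes above the median mean (0.0399), with a trended robust variance (0.0194) and with array weights (0.0284). It was also called without 6 h replicate 3 or 36 h replicate 1 or 2 (adjusted p from 0.0279 to 0.0415). Rbp4 arrays lay between 3.13 and 3.64 in every group, near the low end of the scale, and its changes ran from -0.18 to -0.00 with none called. At that level the arrays cannot tell a low amount of Rbp4 mRNA from none.

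The 2 adiponectin receptor genes moved in opposite directions at 6 h and 12 h. Adipor2 arrays read 11.58, 11.59 and 11.63 untreated, 11.60, 11.64 and 11.65 at 2 h, and 11.84, 11.86 and 11.94 at 6 h. At 12 h they read 11.78, 11.86 and 11.87, at 24 h 11.81, 11.84 and 11.85, at 36 h 11.71, 11.79 and 11.82, and at 48 h 11.69, 11.76 and 11.82. From 6 h on, all 15 arrays lay above all untreated arrays. The rise of Adipor2 was 0.28 ± 0.05 at 6 h, or 1.21-fold (SE, n = 3, limma adjusted p = 0.00047). The 12 h and 24 h changes were both 0.24 (adjusted p = 0.00207 and 0.00173), the 36 h change was 0.18 (adjusted p = 0.0173), and that at 48 h was 0.16 (adjusted p = 0.0325). The step from 2 h to 6 h was 0.25 (adjusted p = 0.00293), a call that ended without replicate 2 (adjusted p = 0.082) or 3 (adjusted p = 0.138) of every group. Leaving out replicate 1 or 3 of every group ended the 12 h call (adjusted p up to 0.0632). The calls at 36 h and 48 h depend on single arrays: that at 36 h ended without 36 h replicate 2 or untreated replicate 1 or 3 (adjusted p up to 0.0704), and that at 48 h without 48 h replicate 1 or 2 or untreated replicate 1 or 3 (adjusted p up to 0.152).

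Adipor1 arrays read 10.01, 10.06 and 10.06 untreated, 9.82, 9.84 and 9.89 at 6 h, and 9.81, 9.82 and 9.88 at 12 h. At 36 h they spread over 9.83, 9.96 and 10.05, which overlaps the untreated range. The change of Adipor1 was -0.19 ± 0.06 at 6 h (SE, n = 3, limma adjusted p = 0.0229) and at 12 h it was -0.21 (adjusted p = 0.0134); its other changes, from -0.06 to -0.13, were not called. Centring ended both calls (-0.11, adjusted p = 0.278, and -0.15, adjusted p = 0.124). Both also ended with only the 6 arrays compared (adjusted p = 0.0775 and 0.0731) and with the 30 min arrays as baseline (0.118 and 0.0759). Leaving out replicate 1, 2 or 3 of every group ended both as well (adjusted p up to 0.247 and 0.121). The 6 h call also ended without 6 h replicate 1 or 3 or untreated replicate 1 or 3 (adjusted p up to 0.0831). The F-test of Adipor1 (adjusted p = 0.102) was called among genes above the median mean (0.0389) and with quantile normalization (0.0121). It was also called with a trended robust variance (0.0315), with array weights (0.038) and without 36 h replicate 2 (0.0363).

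Lepr, whose long form carries the leptin signal, read between 2.99 and 3.33 on every array. Its changes ran from 0.01 to 0.12, none was called, and the confidence interval at 48 h ran from -0.16 to 0.18. As for Rbp4, this is near the low end of the scale.

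The partners of these genes were looked at as 8 lists, and up to 4 genes called by the F-test with the smallest p are named from each. Prkaa2, Prkag2, Cap1, Stra6, Enpep, Cma1, Ace, Agtr1a and Aplnr are named besides, chosen after their values were seen. Of the 14 genes measured around adiponectin, 9 changed over the course, and at 48 h 3 were higher and 3 lower (median change 0.07, beside 0.01 for all genes). Among all genes, 40.5% changed over the course and 24% were called at 48 h, which is the background of each count below. Prkab2, a regulatory subunit of the kinase AMPK that adiponectin activates, rose by 0.75 ± 0.08 at 48 h (limma adjusted p = 1.45e-07) and Paqr3, a Golgi protein of the same family as the receptors, by 0.50 (adjusted p = 0.000483) after a fall of 0.35 at 6 h (adjusted p = 0.0154). Gstk1, also called DsbA-L and known for helping adiponectin assemble, was lower from 12 h on, with a change of -0.43 at 24 h (adjusted p = 4.46e-05). Plod3, which modifies lysines of collagen-like proteins, fell by 0.35 at 48 h (adjusted p = 0.00108). The other 2 genes called at 48 h were the AMPK subunits Prkaa2 (0.48 higher) and Prkag2 (-0.23).

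All 14 genes listed around leptin were measured: 11 changed over the course (40.5% of all genes did), and at 48 h 3 were higher and 4 lower (24% of all genes were called; median change -0.11). Irs2, an adaptor shared with insulin signalling, was the first to rise, by 0.80 at 1 h (limma adjusted p = 4.01e-07, when Lep itself was not called), and its change at 48 h was 0.27 (adjusted p = 0.0123), which turned to -0.11 (adjusted p = 0.355) when the 30 min arrays were the baseline. Irs1, its relative, fell by 0.51 at 48 h (adjusted p = 8.03e-06). Socs3, an inhibitor of leptin and cytokine receptors that those receptors induce, was lower from 6 h and fell by 0.94 at 24 h (adjusted p = 6.67e-05), with a change of -0.64 left at 48 h (adjusted p = 0.00323). Ptpn2, a phosphatase of the JAK and STAT proteins, was 0.26 higher at 48 h (adjusted p = 0.0248). The 48 h calls of Irs2 and Ptpn2 ended when single arrays were left out: untreated replicate 1 or 48 h replicate 1 for Irs2 (adjusted p up to 0.0784), and untreated replicates 2 or 3 or 48 h replicates 1 or 2 for Ptpn2 (adjusted p up to 0.102).

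Of 4 genes listed beside resistin, only its relative Retnla was called at 48 h, with a change of -0.77 ± 0.17 (limma adjusted p = 0.00108); its untreated mean was 3.23, near the low end of the scale. Cap1, proposed as a binding partner of resistin, was not called at 48 h (-0.08). Around retinol, 5 of 17 genes measured changed over the course, and 2 were called at 48 h. Rara, a retinoic acid receptor, was lower from 2 h and fell by 0.72 at 48 h (adjusted p = 2.49e-08). Rarg, another such receptor, was lowest at 2 h, with a change of -0.61 (adjusted p = 5.28e-05), and was no longer called from 24 h on. Dhrs3, which turns retinal back into retinol, was 0.54 higher at 36 h (adjusted p = 9.24e-06) and 0.26 higher at 48 h (adjusted p = 0.016), a call that ended without untreated replicate 1 or 48 h replicate 1 (adjusted p up to 0.0941). Aldh1a3 changed by the F-test alone (adjusted p = 0.0249) and was called at none of the times. Stra6, a receptor for the retinol carried by Rbp4, was not called at 48 h (-0.00).

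Of 13 genes measured around NAD, 10 changed over the course, against 40.5% of all genes, and at 48 h 4 were higher and 3 lower, against 24% called (median change -0.05). Nmnat1, which joins the Nampt product to ATP in the nucleus, rose by 0.65 at 48 h (limma adjusted p = 2.23e-07) and was higher from 2 h. Nmnat2, its counterpart at the Golgi, fell by 0.73 at 48 h (adjusted p = 4.19e-07). Nmrk1, which makes the same intermediate from nicotinamide riboside, rose by 0.49 (adjusted p = 2.06e-06), and Sirt3, an NAD-dependent deacylase of mitochondria, rose by 0.68 (adjusted p = 1.69e-07).

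Around angiotensinogen, 9 of 13 listed genes were measured, 3 changed over the course, against 40.5% of all genes, and 5 were called at 48 h, against 24%. Ctsd, a lysosomal protease, fell by 0.23 (limma adjusted p = 0.00165), Atp6ap2, the prorenin receptor, by 0.30 (adjusted p = 0.0149) and Mme, a peptidase that cleaves angiotensin peptides, by 0.23 (adjusted p = 0.0279). Enpep (0.35 higher) and Cma1 (0.32 higher) had means of 4.03 and 3.48 at 48 h, low on the scale, and passed at 48 h but not by the F-test. Ace and Agtr1a, the converting enzyme and a receptor, had untreated means of 3.08 and 3.82 and were not called at 48 h. The count of 5 was 1 without untreated replicate 1, 2 without 48 h replicate 1, and 3 without untreated replicate 3 or 48 h replicate 2. The call of Mme also ended with centring (-0.19, adjusted p = 0.112). In the apelin list, 2 of 4 names were measured, and Pcsk3, which was not matched, is another name of Furin. Furin, a protease that processes proapelin, was lower from 6 h and fell by 0.45 at 48 h (adjusted p = 0.000333). The receptor gene Aplnr was not called (0.05).

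**Figure D3:**
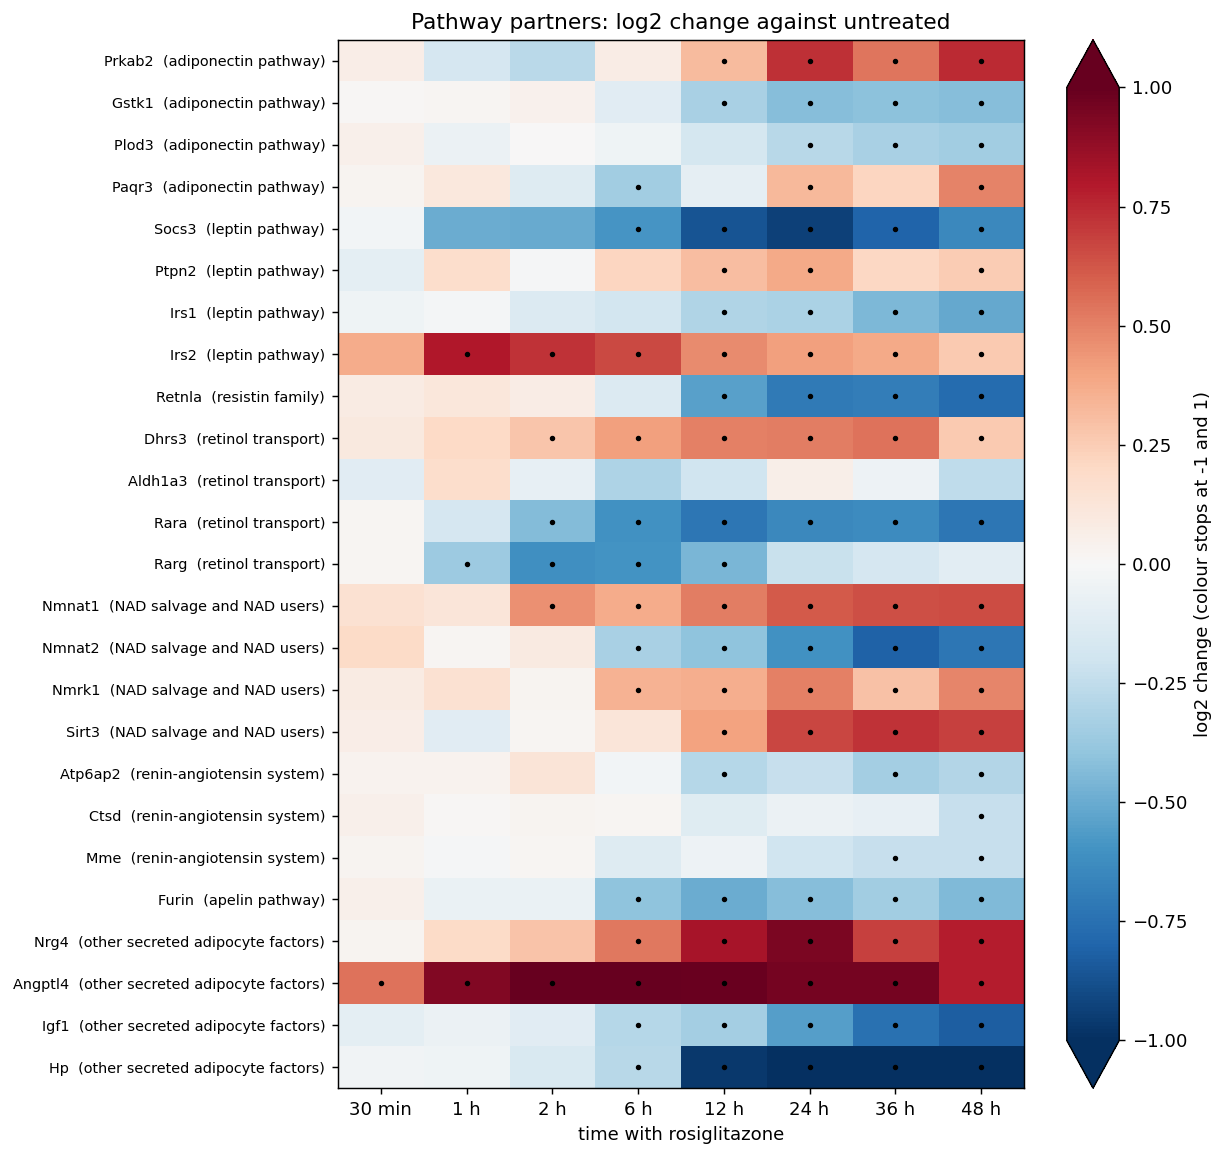
Log2 change against untreated (colour, which stops at -1 and 1) of the 25 named genes of the 8 lists, in rows, at the 8 times, in columns; a black dot marks a limma adjusted p below 0.05. Irs2 and Angptl4 were called higher at every time from 1 h on, whereas Hp, Igf1 and Nmnat2 were called lower from 6 h on and Irs1 from 12 h on.

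Among 32 measured genes of other secreted adipocyte factors, 15 changed over the course, and at 48 h 6 were higher and 7 lower (median change -0.03). Angptl4, an inhibitor of lipoprotein lipase, rose by 0.54 at 30 min (limma adjusted p = 0.000841) and 1.11 at 2 h (adjusted p = 2.81e-10). Nrg4, a growth factor known from brown fat, was 0.94 higher at 24 h (adjusted p = 5.3e-08). Igf1, insulin-like growth factor 1, fell by 0.82 at 48 h (adjusted p = 6.12e-09), and haptoglobin (Hp), an acute-phase protein that binds haemoglobin, fell by 1.97 (adjusted p = 4.5e-14). These lists were drawn up from general knowledge with earlier results of these data in view, so their counts are descriptions and are not independent of those results.

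For the 6 genes that changed by the F-test, the genes with the most similar courses were found by the Pearson correlation of the 9 group means, among 7612 other genes that changed over the course. For Lep these were Setd1b (r = 0.99 over 9 groups), which fell by 0.69 at 12 h, and H2-M3 (r = 0.988), which fell by 0.49 at 12 h. For Agt they were Myorg (r = 0.994) and Hpx (r = 0.99), the gene of haemopexin, whose change at 48 h was -1.87. For Adipor2 they were Mtpap (r = 0.984) and Aco1 (r = 0.977), with changes of 0.43 and 0.27 at 6 h. For Apln they were Ccne1 (r = 0.953) and C2cd3 (r = 0.948), both of which were lowest at 2 h and highest at 6 h. Retn was most like Mlana (r = 0.988) and Ppia (r = 0.987), and Adipoq most like Lyzl6 (r = 0.954) and Nptn (r = 0.893).

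How common a course was differed between these genes. An r above 0.9 was reached by 427 genes for Agt, 374 for Lep, 363 for Retn and 225 for Adipor2, but by 16 for Apln and 1 for Adipoq. The group means share arrays and scaling between genes, and the partners were picked as the highest among many, so r describes likeness of shape in these 27 arrays and carries no test.

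**Figure D4:**
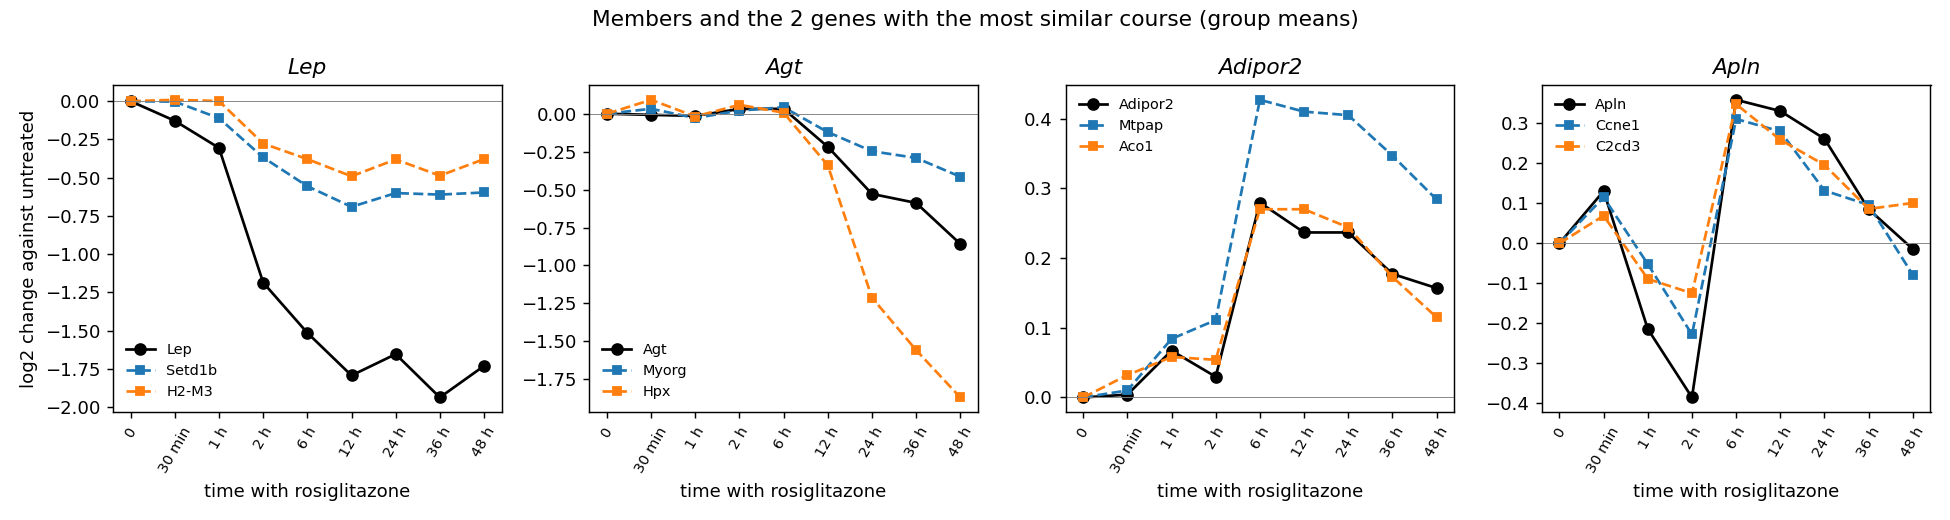
Mean log2 change against untreated (n = 3 arrays per group) of Lep, Agt, Adipor2 and Apln, each with the 2 genes whose courses were most similar over the 9 groups; r is Pearson's correlation of the group means. Hpx fell further than Agt, to -1.87 at 48 h, along a curve of the same shape, and Ccne1 and C2cd3 share the dip of Apln at 2 h and its peak at 6 h.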

How the data were processed

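RNA of 27 samples of 3T3-L1 adipocytes was hybridised to Affymetrix Mouse Gene 1.1 ST arrays, 3 per group. The authors deposited 1 log2 intensity for each probe set and array. Partek and RMA are named, without versions, per the submitters' processing notes. RMA subtracts background, quantile-normalises and summarises probes, which compresses low values. The build behind the annotation is not given in the sources used here. Of 28815 probe sets, 21153 carried 1 gene symbol, 1867 several and 5795 none. Entrez identifiers matched 21123 of the first to the reference table, and 0 symbols changed. The probe set with the highest mean was kept per gene (1367 genes had several), which gave 18781 genes, unfiltered. No 2 arrays were identical.

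One model with a mean for each group, without covariates, was fitted to all 27 arrays (lmFit and eBayes of limma 3.58.1, R 4.3.3; two-sided), with Benjamini-Hochberg adjustment over genes and a threshold of 0.05. The script was tested on simulated data. Python 3.11.15, pandas 2.3.3, numpy 2.4.6 and matplotlib 3.10.9 made tables and plots. Named were all 10 genes, up to 4 genes per list with the smallest F-test p among those called, and the 2 genes most like each gene called by the F-test; genes named beyond these were chosen after their values were seen. The members and lists were chosen with earlier results of these data known. Alternatives were a replicate block, a filter that keeps genes with a mean above the median (4.76), the mean of probe sets, centring, quantile normalization, a trended robust variance, array weights, only the 6 arrays compared, the 30 min arrays as baseline, and leaving out arrays. Those on the lists were added after seeing the data. Arrays have no read depth; their number limits the precision.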

Additional observations from a re-analysis of the deposited data

Results flagged for a closer look

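Among the 10 genes, 3 differed between 2 exposure times in their change against untreated, by limma's test of 48 h against 2 h. That test called 23.7% of all genes. Both changes share the untreated arrays, so the difference rests on the means of the 3 arrays of each time. Its SE and p rest on the variance of the model fitted to all 27 arrays. For Agt the difference was -0.89 ± 0.07 (SE, adjusted p = 9.11e-10): all 48 h arrays lay below all 2 h arrays. For Apln it was 0.37 (adjusted p = 0.000112), with all 48 h arrays above all 2 h arrays. For Retn it was -0.16 (adjusted p = 0.0462), and this call ended with the replicate block (adjusted p = 0.0783), with centring (-0.13, adjusted p = 0.153), with quantile normalization (-0.13, adjusted p = 0.0699), and without replicate 1, 2 or 3 of every group (adjusted p from 0.11 to 0.434). The 3 differences kept their direction in every alternative run.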

How the results depend on the processing

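Of the 80 changes of the 10 genes against untreated, 23 were called, and 12 of these kept their call in every alternative run; no called change of these genes turned its sign. Under the 39 alternative settings, 1324 of 1406 values stayed on the same side of the threshold, 68 lost a call and 14 gained one. With genes above the median mean alone, Lep, Lepr and Rbp4 were not in the fit, the count at 2 h was 1, no resistin relative was called at 48 h (0), and the renin-angiotensin count at 48 h was 2. With the 30 min arrays as baseline the count at 1 h was 1 (Apln), the retinol count at 48 h was 1, and Irs2 at 48 h turned to -0.11 (adjusted p = 0.355). Centring each array brought the 12 h count to 3, and models of only the 6 arrays compared gave 3 at 12 h, 3 at 24 h, 2 at 48 h and 3 for the renin-angiotensin list. Leaving out arrays, singly or by number, gave counts of 0 to 1 at 1 h and 0 to 2 at 2 h. The range was 3 to 4 at 6 h, 2 to 5 at 12 h and 3 to 5 at 24 h. It was 2 to 3 at 36 h, 2 to 4 at 48 h and 4 to 8 by the F-test. On the lists at 48 h it gave 4 to 7 for leptin, 1 to 2 for retinol and 1 to 5 for the renin-angiotensin system. Calls among all genes fell too when a replicate number was left out of every group. Without replicate 1, 2 and 3 they went from 1110 to 769, 459 and 448 at 2 h. They went from 3879 to 2857, 2223 and 2764 at 24 h, and from 4515 to 3788, 2672 and 2929 at 48 h. The models of only the 6 arrays compared called 3050 genes at 12 h (3542 in the main model), 3824 at 24 h and 3761 at 48 h. All-gene counts for single arrays left out are not given. The causes of these shifts were not tested.

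Arrays with the same replicate number did not deviate together: the median correlation of their deviations was -0.126 against 0.051 for different numbers. As 0 of 27 arrays correlated best with their own number, the numbers were not used as pairs. A correlation above 0.1 was seen in 3 of 108 pairs with the same number and in 70 of 216 with different numbers. The reason for this was not tested, and the model held no term for it. With the replicate block the count stayed 2 at 2 h, was 4 for each of 6 h, 12 h and 24 h, and 3 for 36 h and for 48 h. Among all genes the block called 3038 at 12 h, 3450 at 24 h and 3961 at 48 h, against 3542, 3879 and 4515 without it. Calls were lost for Agt at 12 h (adjusted p = 0.0581), Retn at 24 h (0.0761), Adipor2 at 48 h (0.0597) and Adipoq by the F-test (0.0861).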
